A study of Mus musculus with 2 samples.

Results

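The collagen genes of the mouse, the chains of the collagen triple helices of the extracellular matrix, were described in single cells of ovarian tumors. Members were all genes whose symbol is Col, a type number, a and a chain number, without regard to their counts, and 44 of the 32285 genes in the files matched. They cover 27 collagen types on 15 chromosomes, and fall into 11 fibrillar chains, 9 chains of basement membranes, 9 chains of networks and beaded filaments and 15 other chains. All 44 had at least 1 count in the kept cells, 31 had at least 100 and 13 had between 1 and 93.

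Collagen chains are made as procollagens in the endoplasmic reticulum, hydroxylated, folded into triple helices, secreted, trimmed and cross-linked. Fibrillar collagens such as types I, III and V form the tensile fibers of connective tissue and of the stroma of carcinomas, type IV forms the sheet of the basement membrane under epithelia and around vessels, and type VI forms beaded filaments around cells. Fibroblasts and myofibroblasts are known as their chief makers in tumors.

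The study asked how the activin antagonists FST and FSTL3 shape the tumor microenvironment. Cells of KPCA, a mouse model of high-grade serous ovarian carcinoma from fallopian tube epithelium with mutant Trp53 and overexpressed Ccne1 and Akt2, were grafted into the peritoneum of C57BL/6J female mice aged 12 to 16 weeks, and omental tumors were taken at day 10. Both groups carry a deletion of Fst in the tumor line: KPCA.FSTKO is that line, and KPCA.FSTKO_hFSTL3 is the same line with a human FSTL3 plasmid, of which 1 stable clone selected with geneticin was grafted, and the host was the same strain in both. Each group is 1 library of 4 pooled tumors, dissociated with collagenase.

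With 1 library per genotype no difference has a replicate check and no p-value was computed. The unit is the UMI, a tag that marks each captured transcript, and a level is the UMIs of a gene per 1000000 UMIs of a cell class (CPM). The 95% intervals are exact (Poisson for a level, Clopper-Pearson for a share, binomial given the total for a ratio) and take in no more than counting error. Where a count is 0, the limit given in its place is 3 counts of the total. A member is called higher or lower in a comparison when the 2 sums hold at least 100 UMIs and their CPM differ at least 2-fold, and the share of all genes past the same rule is given as the background.

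The KPCA.FSTKO library held 6777 kept cells with 142160061 UMIs and the KPCA.FSTKO_hFSTL3 library 4041 with 69751304, and 12 barcodes were shared between them. Fst itself had 1576 and 1481 UMIs, and 616 and 83 in cancer-like cells (5.41 and 8.34 CPM), and counts from the 3-prime end do not test a deletion elsewhere in the gene. The KPCA.FSTKO_hFSTL3 library stood apart: the median cell had 94.2 UMIs of pancreatic acinar genes per 10000, against 0.259, and 2980 of its 4041 cells passed the gates of unrelated lineages (317 of 6777 in KPCA.FSTKO). The median mitochondrial share over all barcodes was 3.71% and 10.7%. A doublet caller marked 90 and 1 of the kept cells.

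Cells were put in classes by sums of marker genes, none of them a collagen, with thresholds set after the marker distributions were seen. There were 4255 and 416 cancer-like cells in KPCA.FSTKO and KPCA.FSTKO_hFSTL3, respectively, 254 and 35 fibroblast-like, 54 and 25 myofibroblast-like, 31 and 7 pericyte-like, 14 and 7 mesothelial-like (together 353 and 74 stromal-like), 89 and 17 endothelial-like, 981 and 268 macrophage-like, and 72 and 13 T and NK cells. A class cut from a score is a range and not a type: 71 and 9 cancer-like cells and 15 and 4 fibroblast-like cells lay within 20% of their cut. Cells that passed gates of unrelated lineages are called mixed and enter no class. In cancer-like cells the median cell had 54.8 and 48.0 UMIs of cancer markers per 10000 and 2.18 and 1.59 of fibroblast markers, and the median of macrophage markers was 0.722 and 1.25. Stromal-like cells had a median of 42.3 and 39.2 UMIs of fibroblast markers per 10000 and 2.79 and 1.57 of cancer markers. The median acinar load of these classes was 0.217 and 17.3 per 10000 in cancer-like cells and 0.502 and 8.02 in stromal-like cells, so it differed between the libraries within each class. The median mesothelial-like cell had more fibroblast markers (35.7 and 38.8 per 10000) than mesothelial markers (10.2 and 8.83). Its class name rests on a low mesothelial gate of 3, against 20 for fibroblasts.

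Upstream sequences are shown for members on which the differences between the libraries turned: Col3a1, the chain of type III collagen, Col6a3, the long chain of type VI, Col8a1, a chain of the network-forming type VIII, and the neighbors Col4a4 and Col4a3, which are transcribed away from each other. They are the 250 bases before the RefSeq start (for the pair, all 71 bases between the starts), on the strand of the gene (plus strand for the pair), build GRCm38.p6. The genes themselves lie at chr1:45311538-45349706 (Col3a1), chr1:90765923-90843971 (Col6a3), chr16:57624258-57754737 (Col8a1), chr1:82448423-82586849 (Col4a4) and chr1:82586921-82722059 (Col4a3). Capitals mark, on either strand, a TATA box (TATAAA), a GC box (GGGCGG) or a CAGA box (CAGAC, a core bound by SMAD proteins), and a CCAAT box (CCAAT) was searched too. Col3a1 is at chr1:45311288-45311537 (plus strand), Col6a3 at chr1:90843972-90844221 (minus strand), Col8a1 at chr16:57754738-57754987 (minus strand) and the pair at chr1:82586850-82586920.
Col3a1: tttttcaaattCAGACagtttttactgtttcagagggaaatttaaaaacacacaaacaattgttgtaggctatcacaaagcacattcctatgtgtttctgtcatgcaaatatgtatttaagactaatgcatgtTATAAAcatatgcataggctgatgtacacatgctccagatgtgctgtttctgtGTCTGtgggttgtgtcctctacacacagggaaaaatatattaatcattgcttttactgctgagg
Col6a3: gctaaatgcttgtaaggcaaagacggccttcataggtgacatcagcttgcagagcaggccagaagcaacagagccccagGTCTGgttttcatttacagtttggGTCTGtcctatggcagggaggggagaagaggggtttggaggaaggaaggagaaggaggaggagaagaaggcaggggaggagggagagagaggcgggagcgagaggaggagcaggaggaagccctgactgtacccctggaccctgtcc
Col8a1: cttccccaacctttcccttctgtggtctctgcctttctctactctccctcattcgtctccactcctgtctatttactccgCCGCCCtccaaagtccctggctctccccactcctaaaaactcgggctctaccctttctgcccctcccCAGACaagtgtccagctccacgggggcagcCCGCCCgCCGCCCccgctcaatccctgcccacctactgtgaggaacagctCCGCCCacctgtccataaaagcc
Col4a4-Col4a3: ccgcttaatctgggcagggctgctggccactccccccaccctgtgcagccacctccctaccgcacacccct
The Col3a1 window had a GC content of 35.2% and no CpG, with a TATA box 117 bases before the start and CAGA boxes at -239 and -64. Col6a3 had 57.2% GC and 3 CpG, with CAGA boxes on the other strand at -171 and -147. Col8a1 had 60.8% GC and 10 CpG, with 4 GC boxes at -170, -73, -66 and -23 and a CAGA box at -103, and no printed motif overlapped another. The bases between Col4a4 and Col4a3 had 69.0% GC, 2 CpG and none of the 4 motifs. Windows were found for 35 of the 44 members (38 windows). A GC box was in 57.9% of them and in 32.7% of all 32851 windows. A CAGA box was in 44.7% and 42.2%, a CCAAT box in 34.2% and 33.8%, and a TATA box in 13.2% and 12.4%. The median GC content was 59% in member windows and 52.4% in all windows, and its part in the GC box shares was not tested. A match is a description and not a site.

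Collagens took up nearly 3% of the UMIs of stromal-like cells, 29696 CPM (29563 to 29829) in KPCA.FSTKO and 28339 CPM (28085 to 28595) in KPCA.FSTKO_hFSTL3. Cancer-like cells had 1763 CPM (1755 to 1771) and 1327 CPM (1305 to 1350). Stromal-like cells thus stood above cancer-like cells by a log2 ratio of 4.07 in KPCA.FSTKO and 4.42 in KPCA.FSTKO_hFSTL3. Within the stromal-like cells the level was 40312 and 37262 CPM in myofibroblast-like cells, 29004 and 26705 in fibroblast-like cells, 22166 and 17720 in pericyte-like cells and 14515 and 18640 in mesothelial-like cells. Endothelial-like cells had 9193 and 8905 CPM. Macrophage-like cells had 275 and 470 CPM, and T and NK cells, which are not known as makers of collagen and serve here as the background, had 594 CPM (525 to 669) from 269 UMIs and 78.1 CPM (33.7 to 154) from 8 UMIs. In KPCA.FSTKO the macrophage-like level was thus below that of T and NK cells. The T and NK sum there was uneven over cells, with a variance 19.6 times that of binomial counting. Its median cell had 2.74 collagen UMIs per 10000 and its 95th percentile was 8.86, while the median macrophage-like cell had 1.92.

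By the sum of UMIs, cancer-like cells held 44.3% of the collagen of the KPCA.FSTKO library and stromal-like cells 42.3%. In KPCA.FSTKO_hFSTL3 the stromal-like cells held 23.6% and the cancer-like cells 6.55%, while mixed cells held 67.7%. The mixed cells of KPCA.FSTKO_hFSTL3 had a narrow spread of collagen, with a median of 24.5 UMIs per 10000 and quartiles of 21.3 and 28.03, whereas the cancer-like cells of KPCA.FSTKO ran from 6.19 to 27.2 around a median of 13.1. The variance of their collagen counts was 6.85 and 66.0 times that of binomial counting at the depth of each cell, respectively. Stromal-like cells had a median of 256 and 248 UMIs of collagen per 10000.

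**Figure D1:**
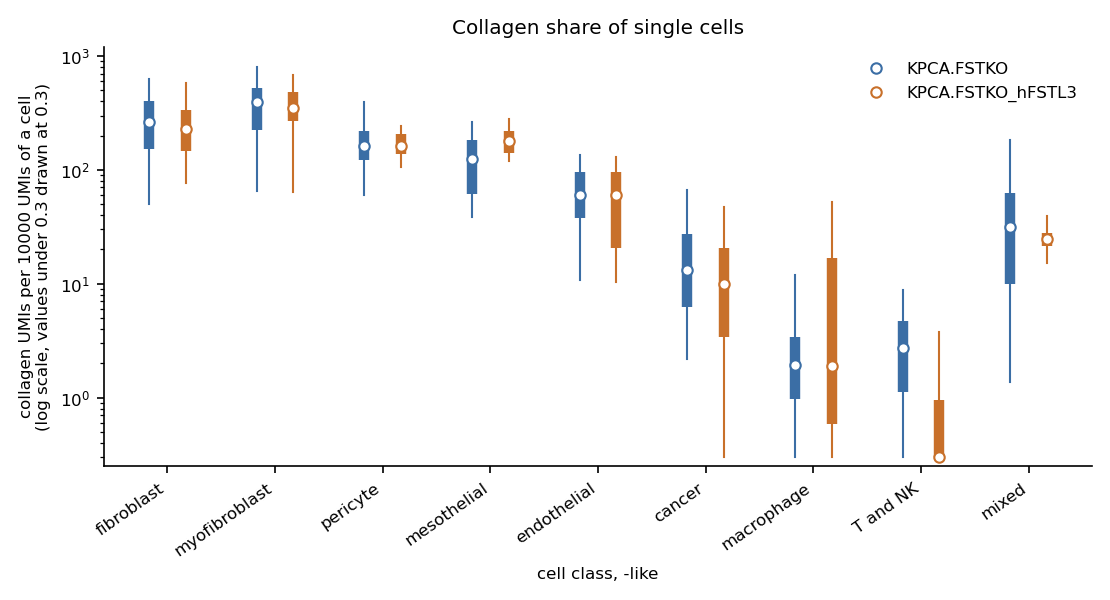
Collagen UMIs per 10000 UMIs of a cell (log axis, values under 0.3 drawn at 0.3) by marker-gated class and library. Circles are medians, thick bars quartiles and thin lines the 5th to 95th percentiles over cells; fibroblast-like cells have medians of 262 and 228 and myofibroblast-like cells of 393 and 350, cancer-like cells are at 13.1 and 10.0, and the mixed cells of KPCA.FSTKO_hFSTL3 cluster tightly around 24.5.

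The family make-up differed by class in both libraries. Fibrillar chains made up 80.8% and 86.3% of the collagen UMIs of fibroblast-like cells in KPCA.FSTKO and KPCA.FSTKO_hFSTL3, 75.8% and 76.1% in myofibroblast-like cells, 55.3% and 35.04% in pericyte-like cells and 51.0% and 36.9% in cancer-like cells, but only 6.35% and 0.957% in endothelial-like cells. Basement membrane chains showed the reverse order, with 89.8% and 97.1% in endothelial-like cells, 31.0% and 43.3% in cancer-like cells, 28.8% and 46.1% in pericyte-like cells, 12.2% and 10.5% in myofibroblast-like cells and 7.34% and 5.16% in fibroblast-like cells. Network and beaded filament chains held 15.1% and 16.1% in cancer-like cells and 9.59% and 7.61% in fibroblast-like cells. Other chains were at 20.7% and 16.6% in macrophage-like cells, against 2.26% and 0.919% in fibroblast-like cells.

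**Figure D2:**
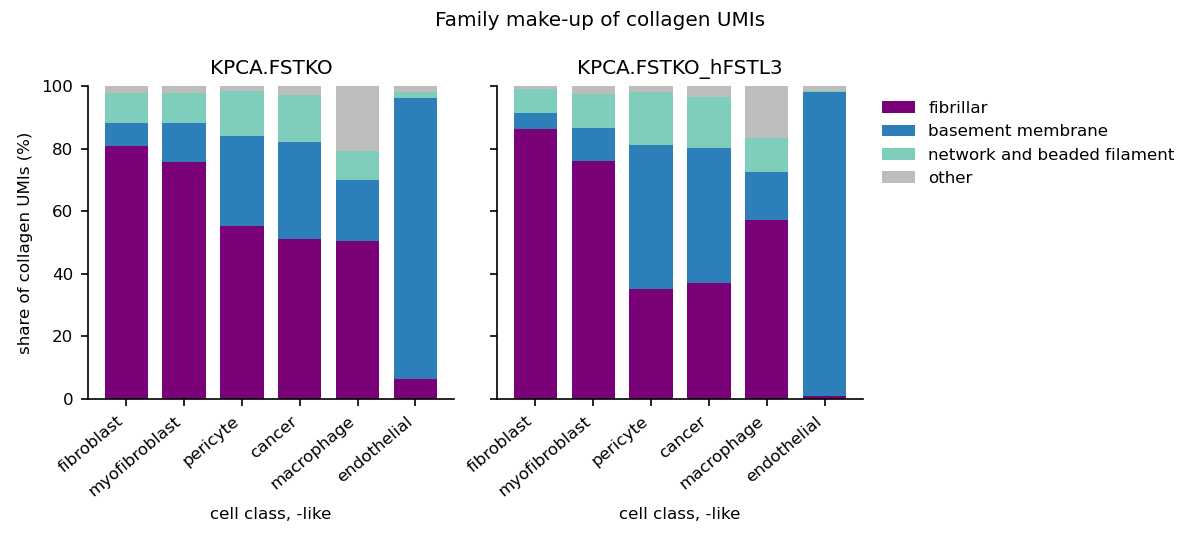
Share of collagen UMIs (%, bars from 0 to 100) taken by 4 groups of collagen chains in 6 marker-gated classes of each library. Fibrillar chains fill 80.8% and 86.3% of the fibroblast-like bar and basement membrane chains 89.8% and 97.1% of the endothelial-like bar.

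Of the 27 members that reached 100 UMIs in KPCA.FSTKO, 20 were higher in stromal-like than in cancer-like cells (background 14.7%), and 17 of 24 were in KPCA.FSTKO_hFSTL3 (background 12.7%). The median log2 ratio of those members was 3.27 and 3.79, against -0.18 and -0.13 over all genes tested. The same 3 members were lower in both libraries (backgrounds 19.4% and 15.5%): Col4a3, Col4a4 and Col11a1. As shares of the 27 and 24 members they were no larger than over all genes. When cancer-like cells were limited to those with no UMI of a stromal marker (427 and 86 cells, chosen after the data were seen), 17 and 17 members were higher. The share over all genes was not computed for those cells. The 3 lower members did not reach 100 UMIs in that comparison (97 UMIs or fewer in KPCA.FSTKO, 15 or fewer in KPCA.FSTKO_hFSTL3), so their calls could not be made, and the log2 ratios in KPCA.FSTKO were -2.96 for Col4a3, -3.199 for Col4a4 and -2.52 for Col11a1. Among the 31 members with at least 100 UMIs and 6 classes with at least 10 cells in both libraries, 27 were highest in the same class in both. Myofibroblast-like cells led with 14 members in each library, followed by fibroblast-like (5 and 6), endothelial-like (6 and 5) and cancer-like cells (4 and 4). No background over all genes stands beside these counts. Col17a1 was placed as endothelial-like in KPCA.FSTKO by 1 UMI (1.21 CPM), and as cancer-like in KPCA.FSTKO_hFSTL3 by 5 UMIs (0.502 CPM). Col4a6 peaked in the cancer-like class for KPCA.FSTKO but in the fibroblast-like class for KPCA.FSTKO_hFSTL3. The 4 cancer-like members were thus not all the same.

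**Figure D3:**
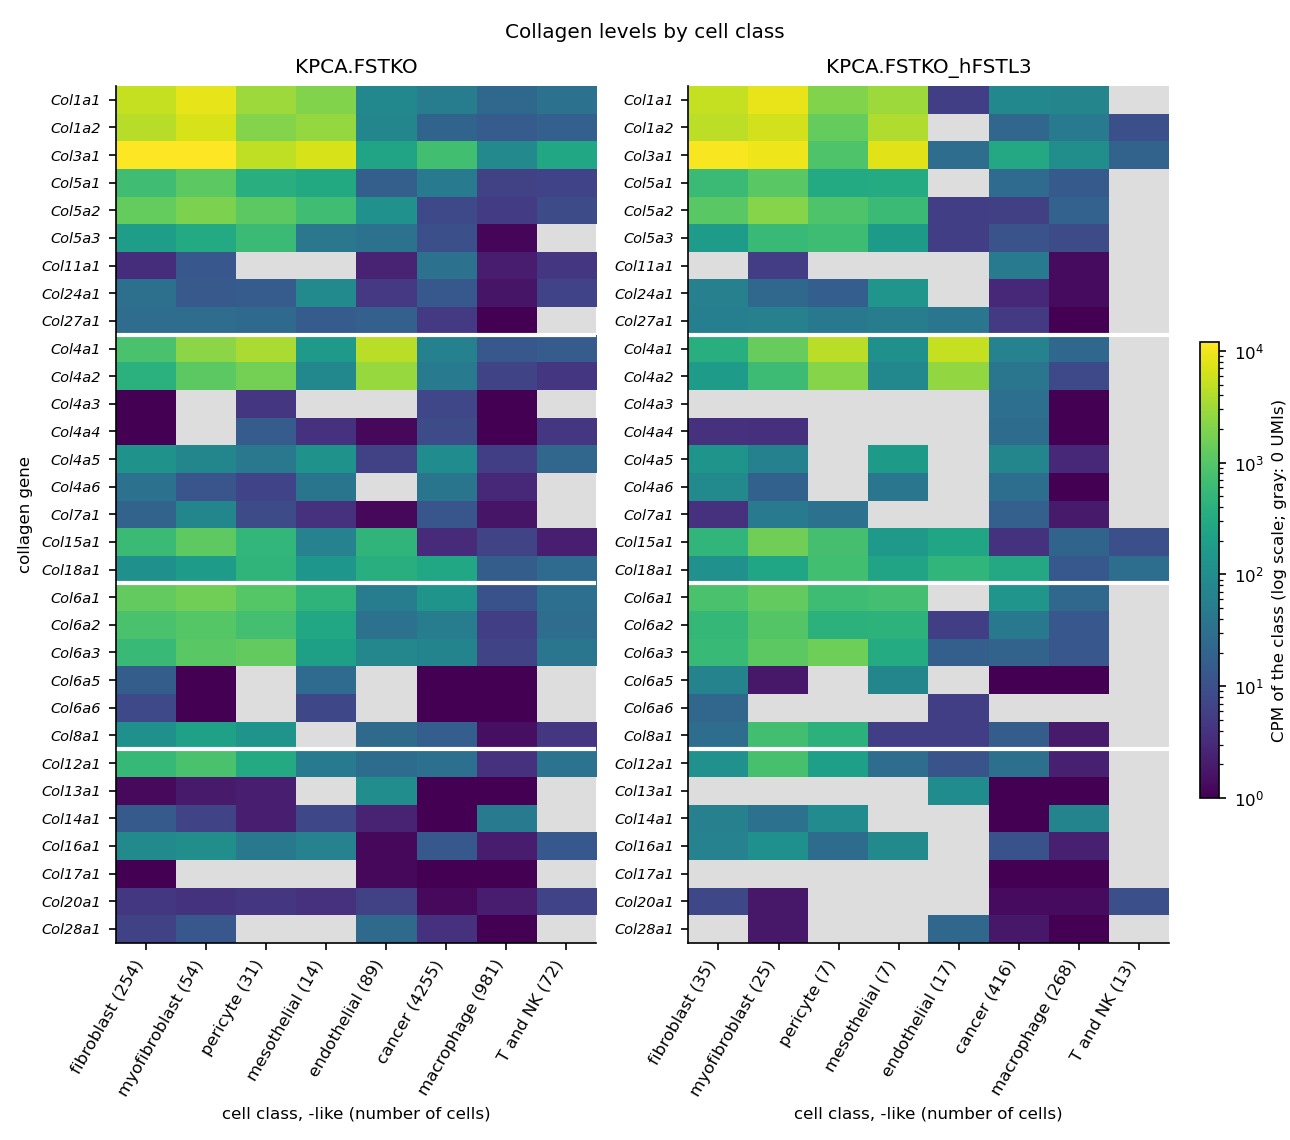
CPM (log color scale, values under 1 drawn as 1, gray for 0 UMIs) of the 31 members with at least 100 UMIs in 8 marker-gated classes, with the number of cells; white lines part fibrillar, basement membrane, network and beaded filament, and other chains. Rows of Col1a1 to Col5a3 are bright in stromal-like columns, those of Col4a1 and Col4a2 in the endothelial-like column, and Col4a3, Col4a4 and Col11a1 stand out in the cancer-like column.

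The fibrillar genes Col3a1, Col1a1 and Col1a2, which encode the chains of types III and I, were the top 3 members of stromal-like cells in both libraries. Col3a1 was at 10984 and 9111 CPM there and at 709 and 287 CPM in cancer-like cells, where it was the first of all members in KPCA.FSTKO and level with Col18a1 (287 CPM) in KPCA.FSTKO_hFSTL3. Its level in T and NK cells was 276 CPM (125 UMIs) in KPCA.FSTKO and 19.5 CPM (2 UMIs) in KPCA.FSTKO_hFSTL3. Col1a1 was at 5445 and 5790 CPM in stromal-like cells and at 52.6 and 79.1 CPM in cancer-like cells, a log2 ratio of 6.69 (6.65 to 6.73) and 6.19 (6.09 to 6.30). Col1a2 had a wider gap, 4571 and 4795 CPM against 20.9 and 22.3 CPM, a log2 ratio of 7.77 and 7.75. Type V chains, which join type I fibrils and set their diameter, followed: Col5a2 was at 1342 and 1377 CPM in stromal-like cells and at 7.95 and 5.93 CPM in cancer-like cells. Col5a3 was highest in pericyte-like cells among stromal classes, at 606 and 655 CPM against 184 and 174 in fibroblast-like cells.

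Col11a1, the type XI chain known from cartilage and from tumor stroma, went the other way. It was at 32.7 and 48.7 CPM in cancer-like cells and at 4.50 (29 UMIs) and 1.78 CPM (3 UMIs) in stromal-like cells, a log2 ratio of -2.86 and -4.77. The type II chain of cartilage, Col2a1, is 1 of 3 collagens that the study names. Its UMIs numbered 8 in KPCA.FSTKO, all in cancer-like cells, and 6 in KPCA.FSTKO_hFSTL3, of which 3 were in cancer-like and 3 in mixed cells. Its 0 UMIs in stromal-like cells allow levels of up to 0.465 and 1.78 CPM. Differences in Col2a1 were not detectable at this depth.

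Among basement membrane chains, Col4a1 and Col4a2, which form the common type IV trimer, were highest in endothelial-like cells, at 4560.0 and 5331 CPM for Col4a1 and 2842 and 2580.1 CPM for Col4a2. Over stromal-like cells this was a log2 ratio of 1.90 and 2.26 for Col4a1 and 2.25 and 2.29 for Col4a2. Together with Col18a1, the type XVIII chain whose C-terminal fragment is endostatin, at 1.36 and 1.03, these were the members higher in endothelial-like cells. They were 3 of 21 in KPCA.FSTKO and 3 of 18 in KPCA.FSTKO_hFSTL3 (backgrounds 16% and 15%), shares like those over all genes. The transmembrane collagen Col13a1, too sparse for that rule, had 83 of its 117 UMIs in endothelial-like cells of KPCA.FSTKO (100.3 CPM, 79.9 to 124), and 17 of 86 in KPCA.FSTKO_hFSTL3 (96.6 CPM, 56.3 to 155). Members lower in endothelial-like cells were 16 of 21 and 14 of 18 (backgrounds 18.6% and 25.5%).

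Pericyte-like cells, which surround vessels, also had high Col4a1, at 3647 and 4530.5 CPM against 820.01 and 376 in fibroblast-like cells. Col4a1, Col4a2, Col5a3, Col6a3 and Col18a1 were the 5 members higher in pericyte-like than in fibroblast-like cells in each library, of 20 and 14 that reached 100 UMIs (backgrounds 6.53% and 10%). These values rest on 31 and 7 cells.

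In cancer-like cells Col18a1 was at 268 (265 to 271) and 287 CPM (277 to 298), behind Col3a1 alone in KPCA.FSTKO and level with it in KPCA.FSTKO_hFSTL3. That was above its level in stromal-like cells, 148 and 237 CPM, by less than the 2-fold rule in each library. Cancer-like cells held 91.0% of all Col18a1 UMIs of KPCA.FSTKO and 24.04% in KPCA.FSTKO_hFSTL3, where mixed cells held 70.8%. The minor type IV chains Col4a3 and Col4a4, known from kidney, lung and eye, reached 7.29 and 8.65 CPM there in KPCA.FSTKO, and 30.4 and 27.5 CPM in KPCA.FSTKO_hFSTL3. In stromal-like cells they had 6 and 12 UMIs in KPCA.FSTKO, and 0 and 5 in KPCA.FSTKO_hFSTL3. Col4a5 and Col4a6 were not past the 2-fold rule between these classes in either library. Col15a1, the type XV chain at the zone between basement membrane and fibrils, had the opposite profile, with 663 and 831 CPM in stromal-like cells and 3.17 and 4.02 in cancer-like cells.

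Each of these type IV genes has a partner that starts head to head with it. Col4a1 and Col4a2 overlap by 22 bases at their starts on chromosome 8, Col4a4 and Col4a3 are separated by the 71 bases printed above on chromosome 1, and Col4a6 and Col4a5 by 1308 bases on chromosome X. In cancer-like cells with a Col4a3 UMI, 45.6% in KPCA.FSTKO and 64.7% in KPCA.FSTKO_hFSTL3 also had a Col4a4 UMI, against 10.8% and 16.6% of the cells without. For Col4a1 and Col4a2 these shares were 70.2% and 61.6%, against 25.3% and 11.7%, and for Col4a5 and Col4a6 53.2% and 53.1%, against 11.7% and 5.47%. Col1a1 and Col1a2, which encode chains of 1 molecule on different chromosomes, gave 26.6% and 30.2%, against 12.7% and 13.5%. Cells share depth across such pairs, and its part was not tested.

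Of the network and beaded filament chains, Col6a1, Col6a2 and Col6a3 build type VI microfibrils. Col6a1 was at 1244 and 929 CPM in stromal-like and 129 and 133 CPM in cancer-like cells, where it was the third member by level in both libraries. Col6a5, an alternative long chain, had 16.1 and 65.9 CPM in fibroblast-like cells and 26.6 (7 UMIs) and 73.6 CPM (13 UMIs) in the few mesothelial-like cells, and Col6a6, another, had 7.82 and 21.96 CPM in fibroblast-like cells. Col8a1, a chain of the type VIII network under endothelium and in remodeling vessels, was at 219 and 711 CPM in myofibroblast-like, 129 and 413 in pericyte-like, 113 and 28.4 in fibroblast-like and 16.7 and 16.1 CPM in cancer-like cells. Of these classes, myofibroblast-like cells had its highest level in both libraries. Because cancer-like cells were many, they held 60.8% of its UMIs in KPCA.FSTKO, and mixed cells held 62.1% in KPCA.FSTKO_hFSTL3.

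Among the other chains, Col14a1, a fibril-associated collagen, was highest in macrophage-like cells among the 6 classes with at least 10 cells in both libraries, at 47.4 and 69.4 CPM against 0.553 and 0.703 in cancer-like cells and 11.9 and 48.7 in stromal-like cells. The 7 pericyte-like cells of KPCA.FSTKO_hFSTL3 had 93.6 CPM (54.5 to 150, 17 UMIs). It came from many cells: 309 of 981 macrophage-like cells in KPCA.FSTKO and 82 of 268 in KPCA.FSTKO_hFSTL3 had a UMI. After each cell was thinned to 1000 UMIs, 4.39% (3.18 to 5.89) and 3.08% (1.25 to 6.25) did. None of 72 and 13 T and NK cells had one at full depth, which allows shares of up to 4.17% and 23.1%, and their median depth was 4690.0 and 4079 UMIs against 12030.0 and 9013 in macrophage-like cells. With Col15a1, these were the 2 of 27 members higher in macrophage-like than in cancer-like cells of KPCA.FSTKO (background 16.1%), while 22 were lower (background 31.8%). The Col15a1 call there rested on 1 barcode with 29 of its 83 UMIs, without which the log2 ratio was 0.48. In KPCA.FSTKO_hFSTL3 the members higher were Col14a1, Col15a1, Col1a2 and Col5a2, 4 of 23 (background 17.7%), a share like that over all genes, and 15 were lower (background 24.4%). Without the richest barcode of each, an alternative chosen after the data were seen, Col1a2 was at a log2 ratio of 0.37, and Col5a2 and Col15a1 no longer reached 100 UMIs. Col14a1 stayed at 6.39 and 6.56. Col12a1, fibril-associated too, was at 543 and 327 CPM in stromal-like cells.

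Myofibroblast-like cells, marked by smooth muscle genes such as Acta2, were compared with fibroblast-like cells. In KPCA.FSTKO, 3 of 21 members were higher, Col4a1 (log2 ratio 1.497), Col4a2 (1.46) and Col7a1 (1.90), the anchoring fibril chain (background 2.54%), and 2 were lower, Col4a6 and Col24a1 (background 4.11%). In KPCA.FSTKO_hFSTL3, 8 of 17 were higher (background 6.73%): Col4a1 (1.83), Col4a2 (1.85), Col5a2, Col5a3, Col8a1 (4.64), Col12a1 (2.75), Col15a1 and Col18a1. There 1 was lower, Col4a5 (background 6.6%), a share like that over all genes. Col4a1 and Col4a2 were thus higher in both libraries. The KPCA.FSTKO_hFSTL3 values rest on 25 and 35 cells.

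Chains of 1 molecule, and Col1a1 with Col3a1 of another type, were compared by their UMI ratios. These count transcripts and are not scaled by length. In stromal-like cells the ratio of Col1a1 to Col1a2, which type I collagen holds as a pair of the first and 1 of the second, was 1.19 (1.17 to 1.21) and 1.21 (1.17 to 1.24). It was 2.51 (2.40 to 2.64) and 3.55 (3.05 to 4.13) in cancer-like cells. In T and NK cells of KPCA.FSTKO it was 1.88 (0.746 to 5.11), from 15 and 8 UMIs. Col1a1 over Col3a1 was 0.496 and 0.636 in stromal-like cells and 0.0741 and 0.275 in cancer-like cells. For Col5a1 over Col5a2 the classes lay on opposite sides of 1, with 0.523 and 0.514 in stromal-like cells and 5.96 and 4.58 in cancer-like cells. Col4a1 over Col4a2 was near 2 in stromal-like cells (2.05 and 2.11) and 1.29 and 1.63 in cancer-like cells. Col6a1 over Col6a2 was 1.54 and 1.44 in stromal-like cells and 2.49 and 2.94 in cancer-like cells. Col8a1 over Col8a2 was 50.8 and 122 in stromal-like cells, with only 16 and 4 UMIs of Col8a2.

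**Figure D4:**
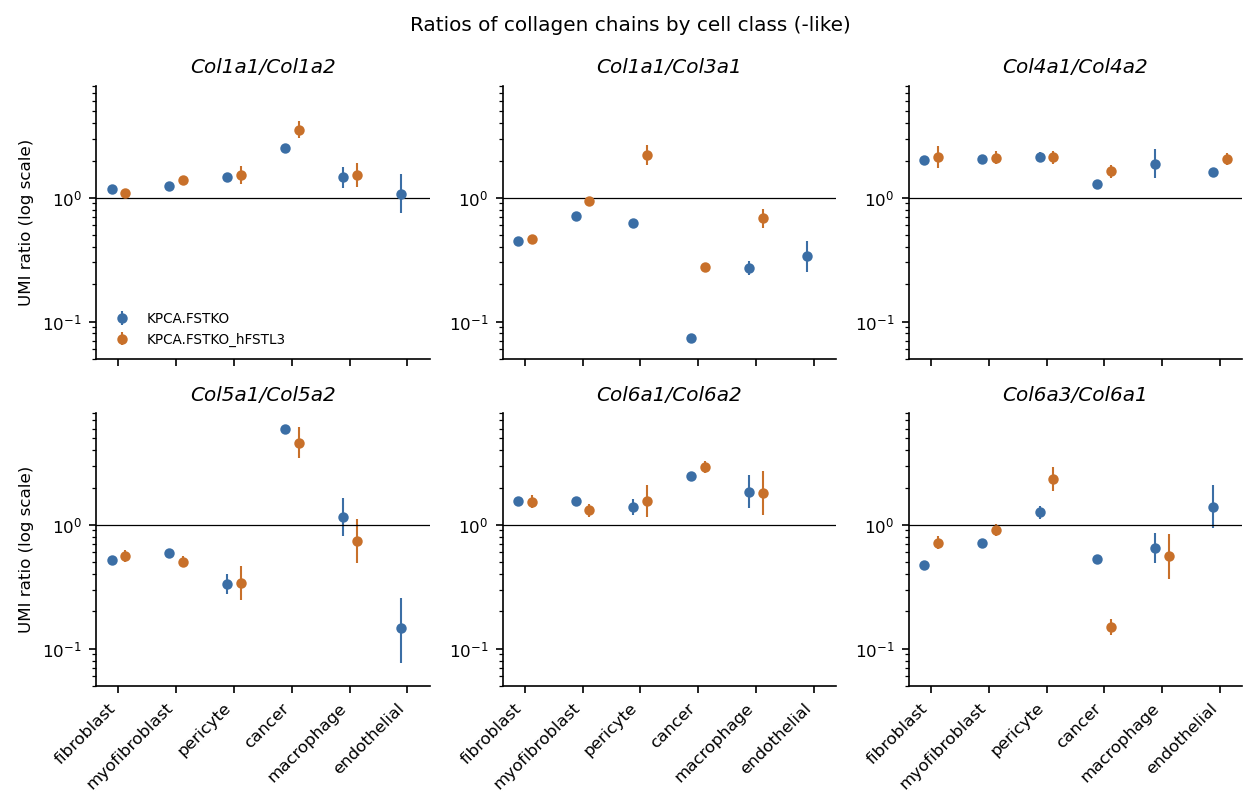
UMI ratios of 6 chain pairs (log axis) in 6 marker-gated classes, with 95% counting intervals and a line at 1; a ratio is drawn where both chains together reach the UMI minimum. Cancer-like cells lie above 1 for Col5a1/Col5a2 (5.96 and 4.58), where the stromal-like classes lie below it. For Col1a1/Col3a1 the stromal-like classes drawn for KPCA.FSTKO_hFSTL3 spread from 0.465 (fibroblast-like) to 2.20 (pericyte-like).

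The share of cells with a UMI was read beside T and NK cells. After thinning to 1000 UMIs per cell, 68.8% (67.4 to 70.3) of cancer-like cells of KPCA.FSTKO and 58.8% (53.6 to 63.8) of KPCA.FSTKO_hFSTL3 had a UMI of any collagen, as did 99.7% and 100% of stromal-like cells, and 29.2% (21 of 72) and 7.69% (1 of 13) of T and NK cells. Unthinned, the cancer-like shares were 98.3% and 85.3% at median depths of 25184 and 8241 UMIs, and those of T and NK cells 79.2% and 46.2%. For Col3a1 the thinned shares were 38.1% and 19.7% of cancer-like cells (82.5% and 54.3% unthinned) and 8.33% and 0% of T and NK cells, where 0 of 13 allows up to 23.1%. For Col18a1 they were 21.7% and 20.8% in cancer-like cells and 4.17% and 7.69% in T and NK cells. Col1a1 in cancer-like cells of KPCA.FSTKO was at 5.17%, within the interval of T and NK cells (5.56%, 1.53 to 13.6). It could not be told apart from the background there, and so wide an interval does not show that the shares are equal. The 12.4% of KPCA.FSTKO_hFSTL3 stands beside 0 of 13 T and NK cells, under the limit of 23.1% that this count allows. Thinning left out 173 and 45 cancer-like cells.

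Genes that make and mature collagens were read from a list of 30, called maturation genes here. It holds genes that hydroxylate, fold, trim and cross-link the chains, and also the collagen receptors Ddr1, Ddr2 and Mrc2 and the matrix protein Sparc. In KPCA.FSTKO, 18 of the 29 with at least 100 UMIs were higher in stromal-like than in cancer-like cells (14.7% of all genes), and 2 were lower (19.4% of all genes). In KPCA.FSTKO_hFSTL3, 18 of 26 were higher (12.7% of all genes) and 1 was lower (15.5% of all genes). Lox, which cross-links fibrils, was at 643 and 512 CPM in stromal-like cells and at 2.86 and 3.01 CPM in cancer-like cells. Adamts2, which trims the N-terminal end of procollagens, was at 241 and 282 against 1.67 and 1.41 CPM. The collagen-specific chaperone Serpinh1 was expressed in both classes, at 778 and 1154 against 216 and 243 CPM. Pcolce, which enhances C-terminal trimming, was lower in stromal-like cells of KPCA.FSTKO (217 against 461 CPM), and Pcolce2 in those of KPCA.FSTKO_hFSTL3 (2.97 against 80.8 CPM).

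The libraries were then compared within a class, as KPCA.FSTKO_hFSTL3 over KPCA.FSTKO. These classes leave out the mixed cells, which held 67.7% of the collagen of KPCA.FSTKO_hFSTL3 and had 6190.3 CPM in KPCA.FSTKO and 2523 CPM in KPCA.FSTKO_hFSTL3. Over all kept cells Col1a1 was at 336 and 623 CPM and Col3a1 at 1198 and 740 CPM. In cancer-like cells the sum of collagens was lower in KPCA.FSTKO_hFSTL3, 1327 against 1763 CPM, a log2 ratio of -0.41 (-0.43 to -0.38). Of the 26 members with at least 100 UMIs, 2 were higher (background 3.09%) and 4 were lower (background 7.09%), and the median log2 ratio was 0.02 against -0.01 over all genes. The member with the most UMIs was among the lower ones. Col3a1 was at 709 CPM in KPCA.FSTKO (80812 UMIs, of which 368 of 4255 cells held 50%) and 287 CPM in KPCA.FSTKO_hFSTL3 (2859 UMIs, of which 13 of 416 cells held 50%), a log2 ratio of -1.30 (-1.36 to -1.25). The other members lower in KPCA.FSTKO_hFSTL3 were Col6a3, at 68.1 and 19.9 CPM (log2 ratio -1.78), the fibrillar Col24a1, at 13.2 and 2.91 CPM (-2.18), and Col28a1, at 3.86 and 1.81 CPM (-1.10). Col6a3 parted from its partners, since Col6a1 was at 129 and 133 CPM, and the ratio of Col6a3 to Col6a1 was 0.527 in KPCA.FSTKO and 0.150 in KPCA.FSTKO_hFSTL3.

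The members higher in cancer-like cells of KPCA.FSTKO_hFSTL3 were the neighbors Col4a3 and Col4a4. Col4a3 counted 830 and 303 UMIs, 7.29 and 30.4 CPM, a log2 ratio of 2.06 (1.87 to 2.25). Col4a4 was at 8.65 and 27.5 CPM, a log2 ratio of 1.67 (1.47 to 1.86). A Col4a3 UMI was found in 10.2% and 24.5% of cancer-like cells, in 0.759% and 4.85% after thinning, and in 0 of 72 and 0 of 13 T and NK cells. In KPCA.FSTKO_hFSTL3, 20 of 416 cancer-like cells held 50% of the UMIs of Col4a3 and 28 held 50% of those of Col4a4. Col1a1 was at 52.6 and 79.1 CPM, a log2 ratio of 0.59, Col8a1 at 16.7 and 16.1 CPM, and Col18a1 at 268 and 287 CPM, each within 2-fold.

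Cancer-like cells differed between the libraries in other ways that were measured beside these values. The median acinar load was 0.217 and 17.3 UMIs per 10000, the median depth 25184 and 8241 UMIs. Col3a1 was also lower in KPCA.FSTKO_hFSTL3 in T and NK cells, at 276 and 19.5 CPM (125 and 2 UMIs), and in endothelial-like cells, at 237 and 28.4 CPM. The part of these differences in the ratios was not tested. Of the 6 members called, 3 fell short of 2-fold under an alternative. Col3a1 was at -0.93 when mixed cells were counted in the class of their largest score. Col4a4 was at 0.46 among cells with no UMI of a stromal marker, on 45 and 10 UMIs. Col28a1 was at -0.69 without the 5% of barcodes richest in collagen and at -0.68 without those of high acinar share. High acinar share means above the median of the kept cells of the same library, 0.259 and 94.2 UMIs per 10000. The libraries were thus cut at unlike loads, and barcodes kept in KPCA.FSTKO_hFSTL3 could carry a higher load. Col4a3, Col6a3 and Col24a1 stayed past 2-fold under every alternative that gave them a value. Among cells with no UMI of a stromal marker the log2 ratio of the sum was -0.90. When mixed cells were counted in the class of their largest score it was -0.10, and 7 members were higher instead of 2. No share over all genes was computed beside that count.

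**Figure D5:**
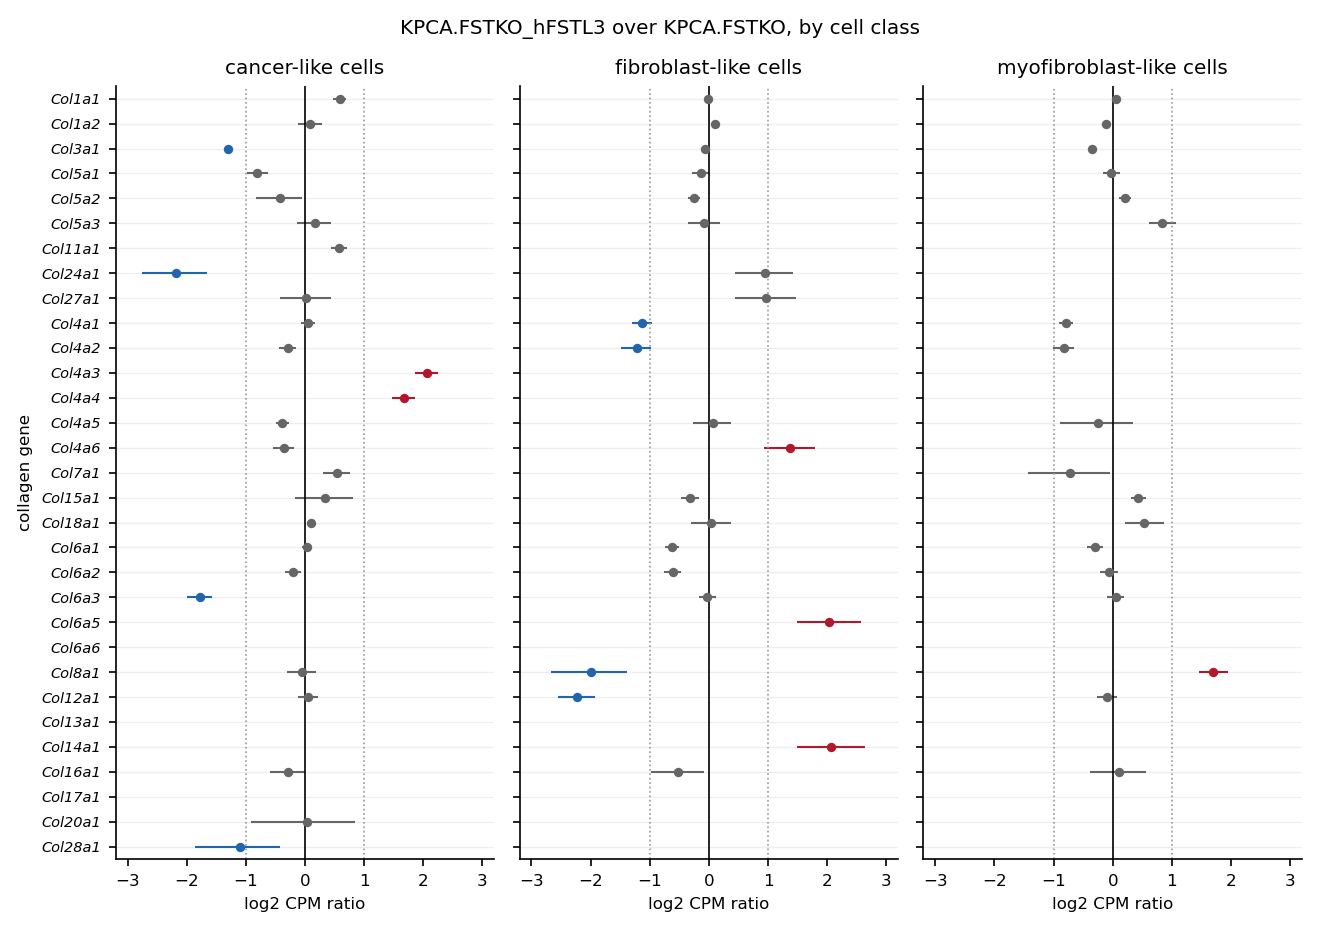
Log2 CPM ratio of KPCA.FSTKO_hFSTL3 over KPCA.FSTKO for members with at least 100 UMIs in 3 marker-gated classes, with 95% counting intervals; dotted lines mark 2-fold, red and blue the members past it. Col3a1, Col6a3, Col24a1 and Col28a1 lie left and Col4a3 and Col4a4 right in cancer-like cells, and Col8a1 lies left (-1.99) in fibroblast-like and right (1.70) in myofibroblast-like cells.

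In stromal-like cells the sum of collagens was 29696 and 28339 CPM, a log2 ratio of -0.07 (-0.08 to -0.05). Of 23 members, 3 were higher in KPCA.FSTKO_hFSTL3 (background 1.76%) and 0 were lower (background 1.85%): Col6a5 at 13.02 and 38.6 CPM (log2 ratio 1.57), Col8a1 at 126 and 291 CPM (1.21, 1.04 to 1.37) and Col14a1 at 11.9 and 48.7 CPM (2.03). Without barcodes of high acinar share Col8a1 was at a log2 ratio of 0.40, no longer past 2-fold. That cut, at each library's own median, left 138 of 353 and 69 of 74 cells. Col6a5 and Col14a1 stayed past 2-fold under every alternative tried. In KPCA.FSTKO_hFSTL3, 3 of 74 stromal-like cells held 50% of the Col6a5 UMIs and 5 held 50% of those of Col14a1, as 5 did for Col8a1. The make-up of the class differed as well, with myofibroblast-like cells being 54 of 353 in KPCA.FSTKO and 25 of 74 in KPCA.FSTKO_hFSTL3, so its parts were compared next.

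In fibroblast-like cells 3 of 22 members were higher in KPCA.FSTKO_hFSTL3 (background 1.41%), Col4a6 (33.0 and 85.3 CPM), Col6a5 (16.1 and 65.9 CPM) and Col14a1 (14.2 and 59.4 CPM). The lower ones were 4 (background 2.69%): Col4a1 at 820.01 and 376 CPM (log2 ratio -1.13), Col4a2 at 410 and 176 (-1.22), Col8a1 at 113 and 28.4 (-1.99) and Col12a1 at 534 and 114 (-2.23). With each cell weighted alike Col4a1 was at 0.065 and Col4a2 at -0.45, neither past 2-fold, and 3 of 35 cells held 50% of the Col4a1 UMIs in KPCA.FSTKO_hFSTL3. The chief fibrillar chains were within the 2-fold rule, with Col3a1 at 11581 and 11125 CPM, Col1a1 at 5219 and 5178 and Col1a2 at 4442 and 4767. In myofibroblast-like cells 1 of 18 members was higher (background 2.21%) and 0 were lower (background 2.78%). This was Col8a1, at 219 and 711 CPM, a log2 ratio of 1.70 (1.46 to 1.94). Its sign was thus opposite in the 2 classes, and the difference between them was not tested. In KPCA.FSTKO 5 of 254 fibroblast-like cells held 50% of its UMIs, and in KPCA.FSTKO_hFSTL3 1 of 25 myofibroblast-like cells held 27.9%. A Col8a1 UMI was found in 27 of 54 and 21 of 25 myofibroblast-like cells, and after thinning in 14.8% and 62.5%. For fibroblast-like cells it was 50 of 254 and 6 of 35, and after thinning 5.91% and 0 of 33, which allows up to 9.09%. No UMI of it was found in the 13 T and NK cells of KPCA.FSTKO_hFSTL3, and 2 of the 72 in KPCA.FSTKO had one.

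In macrophage-like cells the sum was 275 and 470 CPM. Of 13 members, 7 were higher in KPCA.FSTKO_hFSTL3 (background 1.86%) and 0 lower (background 1.25%): Col1a1 (22.6 and 71.4 CPM), Col1a2 (15.5 and 46.8), Col5a1, Col5a2, Col6a1, Col6a2 and Col15a1. A single barcode of KPCA.FSTKO_hFSTL3 held 477 UMIs, 33.2% of the collagen of the class, and without it 4 of the 7 were no longer past 2-fold. Col5a1, Col6a1, Col6a2 and Col15a1 had at least 50% of their KPCA.FSTKO_hFSTL3 UMIs in 1 barcode. Without barcodes of high acinar share none of the 7 was past 2-fold, and the median acinar load of the class was 0.581 and 22.2 per 10000. That cut, at each library's own median (0.259 and 94.2 per 10000), left 415 of 981 and 179 of 268 cells. It therefore did not set the libraries to the same load. Col14a1, at 47.4 and 69.4 CPM, was within 2-fold. Endothelial-like cells had 6 members with enough UMIs, of which 0 were higher (background 2.39%) and 1 was lower (background 4.01%), Col3a1, of which KPCA.FSTKO held 196 UMIs (237 CPM) and KPCA.FSTKO_hFSTL3 held 5 (28.4 CPM).

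Of the maturation genes, 0 of 25 passed the 2-fold rule between the libraries in stromal-like cells (1.76% of all genes were higher and 1.85% lower). In cancer-like cells 2 of 28 were higher in KPCA.FSTKO_hFSTL3 (3.09% of all genes), Pcolce2 (14.1 and 80.8 CPM, log2 ratio 2.52) and the endocytic collagen receptor Mrc2 (1.72 and 4.62 CPM, 1.43). The lower ones, 2 of 28 against 7.09% of all genes and so at the background, were the lysyl hydroxylase Plod1 (12.7 and 6.13 CPM, -1.05) and Fkbp10, a folding enzyme of procollagen (9.38 and 2.41 CPM, -1.96). In macrophage-like cells 1 of 13 was higher (1.86% of all genes).

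The 13 members with under 100 UMIs in all were Col2a1 (14), Col6a4 (1), Col8a2 (77), Col9a1 (1), Col9a2 (2), Col9a3 (89), Col10a1 (28), Col11a2 (70), Col19a1 (6), Col22a1 (23), Col23a1 (93), Col25a1 (69) and Col26a1 (6). They hold the cartilage chains of types II, IX and X and most of the rarer fibril-associated and transmembrane chains, and no library difference is drawn from them. Col20a1 passed 100 UMIs and was highest in T and NK cells, but from 3 and 1 UMIs. None of the 13 can pass the UMI minimum. Col8a2, the partner of Col8a1, was at 2.48 CPM (1.42 to 4.03, 16 UMIs) in stromal-like and 0.0439 CPM (0.0143 to 0.102, 5 UMIs) in cancer-like cells of KPCA.FSTKO, intervals that do not overlap.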

How the data were processed

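Droplet libraries of 3-prime ends were made from pooled tumors, 1 per genotype. The authors deposited a matrix of raw UMI counts per gene and barcode for each library, aligned to mm10 with Cell Ranger (3.1.0 per the submitters' processing notes, 7.2.0 in the matrix header). Barcodes with 201 to 7999 genes and under 20% mitochondrial UMIs were kept. A cell joined the class with the largest marker sum per 10000 UMIs relative to its gate when at least 3 markers had a UMI. Gates were 15 (cancer), 20 (fibroblast, myofibroblast), 10 (pericyte, macrophage, T and NK), 3 (mesothelial) and 15 (endothelial). Cells passing gates of unrelated lineages were set apart as mixed. The gates were set after the marker distributions were seen. Doublets marked by Scrublet (scanpy 1.11.5) were kept. UMIs were summed per class and library and scaled to CPM, and members differing at least 2-fold with at least 100 UMIs were called. No p-value was computed. The members and lists were chosen with earlier results of these data known. Values are named for members with at least 100 UMIs, for Col1a1, Col2a1 and Col8a1, for partner chains and for the top 3 of each class, and genes of the maturation list and members singled out beyond this were chosen after their values were seen. Upstream sequences are RefSeq's. The size rule was tried on simulated class sums that held Poisson counting error alone. Spread between cells or libraries was not simulated, so the rule was not tested against it. Python 3.11.15, scipy 1.17.1 and, for TMM factors, edgeR 4.0.16 in R 4.3.3 were used. Part of the genotype of the tumor line is not reported here. Depth was 142160061 and 69751304 UMIs.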

Additional observations from a re-analysis of the deposited data

Results flagged for a closer look

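Col8a1 stood out because the stromal-like classes went opposite ways. As KPCA.FSTKO_hFSTL3 over KPCA.FSTKO its log2 ratio was 1.70 in myofibroblast-like cells and -1.99 in fibroblast-like cells, with 1.21 in all stromal-like cells together. This difference between the classes was not tested, since each genotype is 1 library. Barcodes that the filters removed (805 and 203) also held collagen UMIs, at 1739 CPM in KPCA.FSTKO and 1920 CPM in KPCA.FSTKO_hFSTL3. They enter no comparison but the alternative with all deposited barcodes.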

How the results depend on the processing

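Of 146 alternative values of the main results, 98 stayed within the counting interval or within 1.5 times a count and 48 moved. The cause was not tested. A reversal of sign could be seen only for log2 ratios, and 0 of those among the main results reversed. Levels, shares, chain ratios and counts of members could only stay or move. No paired analysis was possible because each genotype is 1 library with no replicate number. Of the 25 member calls between libraries, 12 stayed past 2-fold under every alternative. Collagen of stromal-like cells was 30064 CPM in KPCA.FSTKO with 1 more marker needed, 27544 without the 5% of barcodes richest in collagen, 33079 without barcodes of high acinar share, 29236 with each cell weighted alike and 27669 with mixed cells counted in the class of their largest score. In KPCA.FSTKO_hFSTL3 it was 27642 with all deposited barcodes, 26318 without the richest 5%, 27476 with each cell weighted alike and 26632 with mixed cells. The log2 ratio of stromal-like to cancer-like cells in KPCA.FSTKO was 4.09 with 1 more marker, 4.11 with all barcodes, 4.20 without the richest 5%, 4.33 without high acinar share, 3.79 with each cell weighted alike and 4.87 with cancer-like cells lacking stromal marker UMIs. In KPCA.FSTKO_hFSTL3 it was 4.39 with 1 more marker, 4.45 with 1 fewer, 4.48 without the richest 5%, 4.21 with each cell weighted alike and 5.71 with cancer-like cells lacking stromal marker UMIs, which left 0 members lower in stromal-like cells in KPCA.FSTKO and 0 in KPCA.FSTKO_hFSTL3, as the 3 members fell below 100 UMIs there and 21 and 17 members stayed testable.

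Between libraries, the log2 ratio in cancer-like cells was -0.44 with 1 fewer marker, -0.34 without the richest 5%, -0.32 without high acinar share, -0.51 with each cell weighted alike, -0.10 with mixed cells, -0.49 with TMM scaling and -0.90 without stromal marker UMIs. With mixed cells 7 members were higher, without stromal marker UMIs 1 was, and with each cell weighted alike 8 were lower. In stromal-like cells the log2 ratio was -0.090 with 1 more marker, -0.10 with all barcodes, -0.22 without high acinar share, -0.090 with each cell weighted alike, -0.18 with TMM scaling and -0.10 with stromal classes weighted alike. There 1 member was higher without high acinar share, 5 with stromal classes weighted alike and 8 at a ratio of at least 1.5. Lower were 1 without the richest 5%, 1 without high acinar share, 1 at that ratio and 2 with at least 20 UMIs. For no alternative was the share of all genes past the rule computed, so these counts of members have no background. TMM moved all genes by -0.15 to -0.08 on the log2 scale. Col4a1 in fibroblast-like cells reversed to 0.065 with each cell weighted alike. Col1a1 over Col1a2 in stromal-like cells of KPCA.FSTKO was 1.22 without high acinar share. Thinned to 2000 UMIs, 83.6% and 74.7% of cancer-like cells had a collagen UMI. The alternatives without stromal marker UMIs, with stromal classes weighted alike and without the richest macrophage-like barcode (of all collagens or of the member) were chosen after seeing the data. Precision in KPCA.FSTKO_hFSTL3 is limited by 416 cancer-like and 74 stromal-like cells.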
